A study of Homo sapiens with 4 samples.

Results

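Desmosomes are the plaques that tie the keratin filaments of neighbouring epithelial cells together. Transmembrane cadherins of the desmoglein and desmocollin families meet those of the next cell, the armadillo proteins plakoglobin and the plakophilins bind their tails inside the cell, and desmoplakin links this plaque to keratin. In stratified and transitional epithelia such as the urothelium, DSG2, DSC2, PKP2 and PKP3 are the widely expressed members, while DSG3, DSC3 and PKP1 are best known from basal and squamous cells. The 9 genes described here are DSG2, DSG3, DSC2, DSC3, JUP (plakoglobin), PKP1, PKP2, PKP3 and DSP (desmoplakin). They were chosen by name for their place in the desmosome and found by Ensembl identifier, and all 9 were among the 60617 genes of the table.

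The values are gene-level FPKM, that is read pairs per kilobase of gene model relative to all mapped pairs, from total RNA of T24 and 5637, which are both established human bladder cancer cell lines. For each line there was 1 library of untreated cells and 1 of cells kept for 6 h with protodioscin, a steroidal saponin of plants, at 60 µM in T24 and 70 µM in 5637. The titles state the doses in this unit whereas the protocol states millimolar, and no vehicle is named for the untreated cells. There were 4 libraries in 4 groups with no replicate, so a difference within a line carries no error between cultures and no p-value. Whether both cultures of a line were grown independently is not stated, and each line stands for 1 tumour only.

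The 4 libraries had between 11941 and 12405 genes at 1 FPKM or more. A single read per kb corresponded to 0.0171 to 0.0244 FPKM, and relative depth ranged from 1 in untreated T24 to 1.43 in untreated 5637. Markers of urothelial and simple epithelial cells summed to 2008 and 1604 FPKM in untreated and treated T24 and to 3958 and 3400 FPKM in 5637. KRT7 and KRT8, at 1073 and 555 FPKM, made up most of the untreated T24 sum. EPCAM was at 2.09 FPKM in untreated T24 against 108 FPKM in untreated 5637, and UPK1B was listed at 0 against 3.79 FPKM. Of 8 of these markers compared in the untreated pair, 7 were lower in T24 and 1, GATA3, was higher. Markers of basal cells (KRT5, KRT14, KRT6A and TP63) summed to 0.472 and 0.233 FPKM in T24 and to 936 and 737 FPKM in 5637. KRT17, a basal keratin left out of this sum, went the other way. Its FPKM values were 634 (untreated) and 485 (treated) for T24, against 404 and 324 for 5637. The low T24 sum therefore holds for the listed markers only. None of 5 leukocyte markers and none of 4 markers of heart muscle, the other tissue rich in desmosomes, reached 1 FPKM in any library. Of the fibroblast and endothelial markers, COL1A1 reached 7.52 FPKM in treated 5637 and CDH5 1.57 FPKM in untreated T24, and the others stayed under 1 FPKM.

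Promoter sequences are shown for the 3 genes that were near 0 in T24 (DSC2, DSG3 and PKP1) and for 2 genes that were present in both lines (DSG2 and DSP), so that the 2 kinds can be compared. Each stretch lies before the first annotated start of the gene on GRCh38.p14, comes from RefSeq and is written 5′ to 3′ on the gene's own strand. Capitals mark the E-box CAGGTG or its reverse complement CACCTG, the letters bound by the repressors ZEB1 and SNAI2.
DSC2, chr18:31102523-31102671, minus strand: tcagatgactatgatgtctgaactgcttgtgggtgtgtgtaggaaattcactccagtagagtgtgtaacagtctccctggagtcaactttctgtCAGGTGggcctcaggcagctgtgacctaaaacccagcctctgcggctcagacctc
DSG3, chr18:31447491-31447740, plus strand: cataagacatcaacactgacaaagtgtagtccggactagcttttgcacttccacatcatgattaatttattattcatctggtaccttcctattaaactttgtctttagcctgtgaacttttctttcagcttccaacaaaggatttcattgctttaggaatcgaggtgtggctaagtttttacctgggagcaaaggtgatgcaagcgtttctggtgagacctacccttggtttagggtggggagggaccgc
PKP1, chr1:201283256-201283451, plus strand: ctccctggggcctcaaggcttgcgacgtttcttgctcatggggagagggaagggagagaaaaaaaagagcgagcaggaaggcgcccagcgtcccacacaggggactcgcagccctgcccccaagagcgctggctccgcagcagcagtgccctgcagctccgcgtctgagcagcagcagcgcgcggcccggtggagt
DSG2, chr18:31497927-31498042, plus strand: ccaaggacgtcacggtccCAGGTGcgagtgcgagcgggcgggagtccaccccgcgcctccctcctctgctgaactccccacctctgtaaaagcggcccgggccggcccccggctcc
DSP, chr6:7541421-7541574, plus strand: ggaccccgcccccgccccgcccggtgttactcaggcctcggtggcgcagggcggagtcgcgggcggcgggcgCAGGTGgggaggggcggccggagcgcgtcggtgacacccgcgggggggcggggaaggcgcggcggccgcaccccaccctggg

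RefSeq gave windows of 300 bases, from 250 before to 50 after a start, for 7 of the 9 genes, with 9 windows because DSC2 and JUP have 2 starts each. PKP2 and PKP3 were not matched. The DSG3 window held 44% G and C and 6 CpG pairs, against a median of 58.7% and 14 over 34796 windows of all genes, whereas the DSG2 and DSP windows held 76.7% and 77% with 36 and 37 CpG pairs. An E-box lay in 4 of the 9 windows, with 1 match in DSC2 and 2 each in DSG2, DSP and 1 of the JUP windows, and in 20.6% of all windows. No window of DSG3 or PKP1 held one. AACNNGTT, the letters bound by the grainyhead factors and the same on both strands, was in 0 of the 9 windows and in 3.53% of all windows. These matches describe the letters and show no binding.

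All 9 desmosome genes were at lower levels in T24 than in 5637, in the untreated libraries, where 48.1% of all genes compared were, and in the treated libraries, where 50.6% were. In bulk RNA, fewer cells that express a gene and less RNA per cell cannot be told apart. JUP differed by the most in FPKM and PKP1 by the most on the log2 scale, and DSC3 by the least on that scale. The sum over the 9 genes was 113.9 FPKM in untreated T24, 107.2 FPKM in treated T24, 545.02 FPKM in untreated 5637 and 481 FPKM in treated 5637. The untreated 5637 sum was thus 4.79 times that of untreated T24, and among treated libraries it was 4.49 times. JUP alone held 61.1% of the untreated 5637 sum and 40% of the untreated T24 sum. The untreated ratio was 2.51 for the desmogleins, 4.96 for the desmocollins and 3.39 for the plakophilins. Levels were compared as log2(FPKM + 1), on which a difference of 1 is 2-fold for well expressed genes and understates the change of low ones.

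DSG2, the desmoglein of simple and transitional epithelia (chromosome 18, 31498043 to 31549008 on GRCh38), was the main desmosomal cadherin of both lines. It was at 22.8 FPKM in untreated T24, 21.6 FPKM in treated T24, 52.4 FPKM in untreated 5637 and 49.4 FPKM in treated 5637. Both 5637 libraries were above both T24 libraries, a log2 difference of -1.16 (SE 0.063, limma, T24 minus 5637 over both treatments, n = 2 libraries a line). DSG2 held 92.8% of the FPKM of the 4 desmosomal cadherins in untreated T24 and 79.3% in untreated 5637. Its exons overlap DSG2-AS1 on the other strand, which libraries without strand cannot separate, and DSG2-AS1 was listed at 0 in all 4 libraries.

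DSG3, the desmoglein of basal squamous layers and a known autoantigen of pemphigus (chromosome 18, 31447795 to 31478702), was listed at 0 in untreated T24 and at 0.0058 FPKM in treated T24. The latter corresponds to about 1.7 reads. In 5637 it was at 4.92 FPKM untreated and 3.204 FPKM treated. DSG3 transcripts were thus measured in 5637 and were at or near 0 in both T24 libraries.

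DSC2, the most widely expressed desmocollin, stood at 0.131 and 0.0929 FPKM in untreated and treated T24, against 5.38 and 4.38 FPKM in untreated and treated 5637. DSC3, the desmocollin of basal cells, was at 1.64 and 1.48 FPKM in T24, against 3.41 and 3.16 FPKM in 5637. The T24 libraries were below the 5637 libraries for both genes, and the order of the 2 desmocollins was opposite in the 2 lines. DSC3 held 92.6% of the desmocollin sum in untreated T24 and 94.1% in treated T24, against 38.8% and 41.9% in 5637. No test was made of these shares.

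The 4 cadherin genes of the set belong to a cluster of 7 on chromosome 18 that spans 559 kb. In order along the chromosome these are DSC3, DSC2, DSC1, DSG1, DSG4, DSG3 and DSG2. DSC1 and DSG1, both cadherins of upper epidermal layers, were listed at 0 in all 4 libraries, and DSG4, of hair follicles, was at 0.0081 FPKM in untreated 5637 and listed at 0 in the others. Outside this cluster on the DSG2 side, TTR was listed at 0 in every library and B4GALT6 was at 1.06 and 1.19 FPKM in T24, against 2.41 and 2.63 FPKM in 5637. The detected genes thus lay at the ends of the cluster, DSC3 and DSG2 being the outermost, with the 3 genes at or near 0 in its middle.

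**Figure D1:**
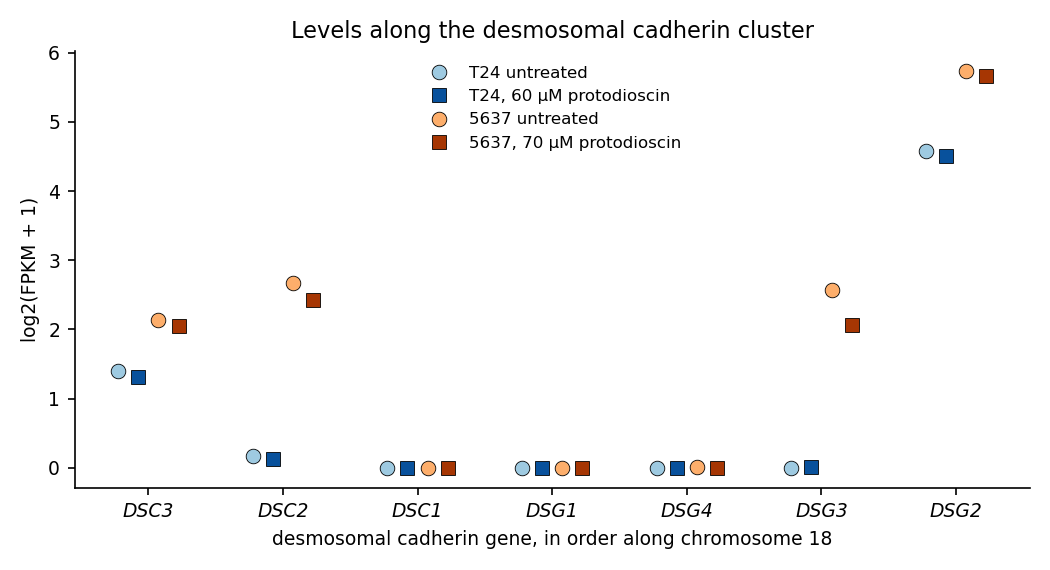
Level, as log2(FPKM + 1), of the 7 desmosomal cadherin genes in their order along chromosome 18, with 1 symbol per library. DSC1, DSG1 and DSG4 lie at or near 0 in all libraries, DSC2 and DSG3 are near 0 in T24 alone, and DSG2 is highest.

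JUP encodes plakoglobin, the armadillo protein that binds the tails of desmosomal and classical cadherins (chromosome 17, 41754604 to 41786931). It was at 45.5 FPKM in untreated T24, 47.4 FPKM in treated T24, 333.03 FPKM in untreated 5637 and 294 FPKM in treated 5637. JUP was the most abundant of the 9 genes in each library, and its log2 difference between the lines was -2.73 (SE 0.075, limma). CTNNB1, which encodes its close relative beta-catenin, was at 69.4, 65.8, 56.7 and 63.02 FPKM in the same order. The ratio of JUP to CTNNB1 was therefore 0.656 and 0.72 in T24 and 5.88 and 4.67 in 5637, so that beta-catenin transcripts were the more abundant of the 2 in T24 and plakoglobin transcripts in 5637. CTNNB1 itself did not pass the test between the lines, with a log2 difference of 0.17 (limma, 95% interval -0.01 to 0.36, adjusted p = 0.08) that passed with TPM scaling (adjusted p = 0.0222).

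The plakophilins, armadillo proteins that cluster desmosomal cadherins and recruit desmoplakin, were all lower in T24 and differed in the size of the difference. PKP1, the plakophilin of stratified epithelia (chromosome 1, 201283452 to 201332993), had 0.0368 and 0.0546 FPKM in untreated and treated T24, against 24.6 and 19.1 FPKM in 5637. The T24 values rest on about 8.2 and 15.5 reads, so that PKP1 was near the limit of these libraries in T24. PKP2, the plakophilin of simple epithelia and heart, was at 3.98 and 3.44 FPKM in T24, against 12.4 and 11.6 FPKM in 5637. PKP3, found in most epithelia (chromosome 11, 392614 to 404908), had 30.2 and 22.3 FPKM in T24, against 79.04 and 69.3 FPKM in 5637. PKP3 held 88.3% of the sum of the 3 plakophilins in untreated T24 and 68.1% in untreated 5637, PKP1 0.108% and 21.2%, and PKP2 a like part of both, at 11.6% and 10.7%.

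DSP, desmoplakin, joins the plaque to keratin filaments (chromosome 6, 7541575 to 7586717). Its level was 9.57 and 10.9 FPKM in untreated and treated T24, against 29.9 and 26.9 FPKM in 5637. Both T24 libraries were below both 5637 libraries, with a log2 difference of -1.39 (SE 0.096, limma).

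**Figure D2:**
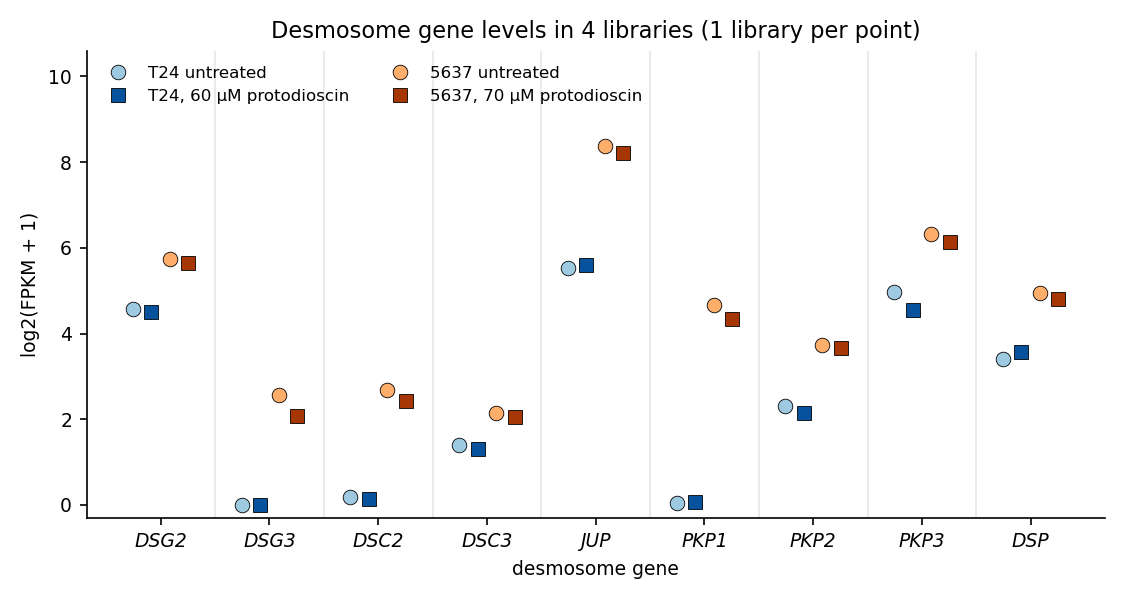
Level, as log2(FPKM + 1), of the 9 desmosome genes in the 4 libraries, with 1 symbol per library and no error bars because no group had a replicate. For each gene both 5637 libraries lie above both T24 libraries, and DSG3, DSC2 and PKP1 lie near 0 in T24.

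Within a library the order of the levels began with JUP, PKP3, DSG2 and DSP in all 4 libraries. PKP2 followed in T24, and PKP1 followed in 5637. In 5637 the lowest 3 were DSC2, DSG3 and DSC3. The treated values of DSG3 (3.204 FPKM) and DSC3 (3.16 FPKM) lay closer to each other than either lay to its own untreated value, so their order there cannot be told apart.

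In the fit over all 4 libraries with line and treatment as terms, limma called all 9 genes lower in T24 (Benjamini-Hochberg adjusted p from 2.47e-06 for JUP to 0.00112 for DSC3). Over all genes tested, 68.9% were called in this fit and 33.9% were called lower in T24, so a call on its own does not set a gene apart. With 1 residual degree of freedom, these p-values rest largely on a prior variance drawn from all genes. The rest is the difference between the lines in their response to treatment, which this fit cannot tell apart from technical scatter. The treated and untreated libraries stand as the units of each line, so the spread between cultures was not measured. By the rule of 2-fold, 8 of the 9 genes were lower in untreated T24, where 11.2% of the 13130 genes compared were, and 8 of 9 were lower in treated T24, against 11.1%. The exception was DSC3, at -0.74 in both comparisons, which rests on the added 1: in FPKM alone 5637 had 2.08 and 2.13 times the DSC3 level of T24, and with a pseudocount of 0.1 all 9 genes were 2-fold lower in both pairs. With a pseudocount of 5 the counts were 6 and 5. The median difference over the 9 genes was -1.55 in the untreated and -1.59 in the treated libraries, against 0.03 and -0.01 over all genes compared. DSC2, DSG3 and PKP1 were compared and tested only because they reached 1 FPKM in 5637, so their direction was set by the filter.

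Other genes of cell junctions and of the cytoskeleton that desmosomes anchor were taken from fixed lists. For these lists and those below, the shares over all genes tested were 68.9% called for the line effect and 33.9% called lower in T24. Of 6 other desmosomal genes, 2 reached the level needed for the test and limma called both lower in T24. PERP, a tetraspan protein of desmosomes and a target of p53 family factors, stood at 25.9 and 27.9 FPKM in untreated and treated T24, against 109.9 and 106 FPKM in 5637. Among 4 plakin genes that link junctions to filaments, limma called 3 lower and 1 higher in T24. Periplakin (PPL) had the lowest difference, at 2.68 and 3.12 FPKM in T24 and 25.4 and 22.6 FPKM in 5637, and DST (dystonin) was the higher one, at 15.2 and 15.5 FPKM against 12.6 and 9.88 FPKM. The DST call was lost with no filter on low values (limma adjusted p = 0.0866, range over alternatives 0.00631 to 0.0866).

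For the adherens junction, where classical cadherins anchor actin, limma called 5 of the 8 genes tested lower and 1 higher in T24. Of the 5, CDH1 and CDH3 passed the filter through 5637 alone and so could be called only lower. Over all genes tested, 68.9% were called and 33.9% were called lower in T24. E-cadherin (CDH1) was at 0.016 FPKM in untreated T24, listed at 0 in treated T24, and at 69.6 and 72.3 FPKM in 5637. N-cadherin (CDH2) was the 1 higher gene, at 48.5 and 45.6 FPKM in T24 and 33.4 and 26.7 FPKM in 5637. T24 therefore had transcripts of DSG2, DSP, JUP and PKP3 in the near absence of E-cadherin transcripts.

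Keratins and vimentin showed the widest range between the lines. In this list limma called 8 of 9 genes lower and 1 higher in T24. Of the 8, KRT5, KRT14 and KRT6A reached 1 FPKM in 5637 alone, which fixed their direction. KRT6A, a keratin of activated and squamous epithelium, was at 0.0681 FPKM in untreated T24, listed at 0 in treated T24, and at 574 and 432 FPKM in 5637. KRT17, a basal keratin, was the higher one, at 634 and 485 FPKM in T24 and 404 and 324 FPKM in 5637. Vimentin (VIM), a filament protein of mesenchymal cells, was also present in both lines, at 67.95 and 61.4 FPKM in T24, against 304 and 267 FPKM in 5637.

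Of 13 transcription factors of epithelial and mesenchymal states, 12 were tested, and limma called 10 lower and 2 higher in T24. The filter fixed the direction of 7 of these calls, since TP63, GRHL1, GRHL2, GRHL3 and TWIST1 reached 1 FPKM in 5637 alone and ZEB1 and ZEB2 in T24 alone. TP63, the basal cell factor, was at 0.0232 FPKM in untreated T24, listed at 0 in treated T24, and at 27.9 and 19.2 FPKM in 5637. ZEB1, a repressor of epithelial genes that binds E-boxes, had the highest difference of T24 minus 5637 in this list. ZEB1 values were 8.46 and 8.38 FPKM in T24 against 0.0702 and 0.179 FPKM in 5637. ZEB2, named after its values were seen, was the other higher one. SNAI2, the other repressor named for the E-box, went the opposite way and was among the 10 called lower. Its T24 libraries had 17.2 and 14.8 FPKM, those of 5637 41.7 and 39.6 FPKM (log2 difference -1.30, limma, adjusted p = 2.58e-05). Of the proteases and kinases that act on desmosomes, PRKCA (protein kinase C alpha) was at 11.9 and 13.6 FPKM in T24, against 2.82 and 2.99 FPKM in 5637, while EGFR was at 29.3 and 31.95 FPKM in T24, against 74.6 and 75.96 FPKM in 5637. In that list limma called 3 of 5 lower and 1 higher in T24, beside 68.9% of all genes called and 33.9% called lower.

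**Figure D3:**
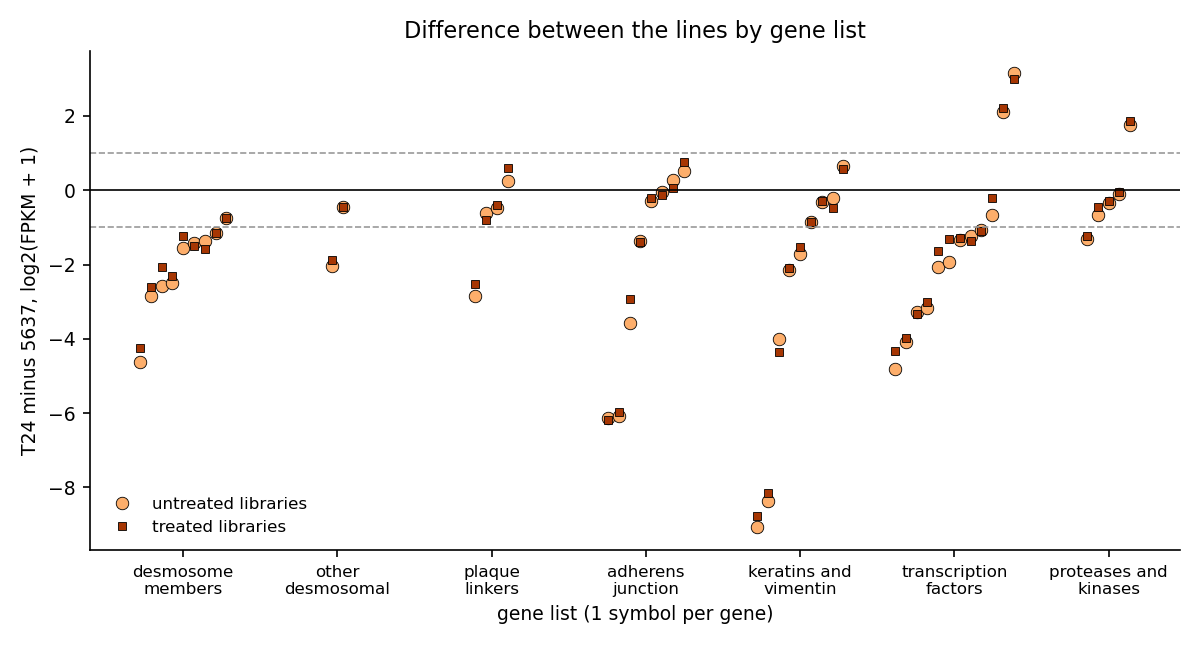
Difference between T24 and 5637 in log2(FPKM + 1) for the genes of each list at 1 FPKM or more in at least 1 library of the pair, with circles for the untreated and squares for the treated pair of libraries and dashed lines at 2-fold. All 9 desmosome genes lie below 0, while the lists of junction, filament, transcription factor and kinase genes also hold members above 0.

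With protodioscin in 5637, all 9 desmosome genes were at lower levels in the treated than in the untreated library, by 0.08 to 0.49 on the log2 scale. The largest differences were those of DSG3, PKP1 and DSC2, which are the 3 genes near 0 in T24, and the smallest those of DSC3, DSG2 and PKP2. None of the 9 reached 2-fold, as 0.388% of the 12635 genes compared in this line did. The median over the 9 genes was -0.18, against 0.04 over all genes compared, of which 38.5% were below 0. In 5637, with median-ratio scaling 53.7% of all genes were below 0 and with TPM 49.1%, and all 9 desmosome genes were below 0 under both.

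DSG3 had the lowest difference in 5637 (-0.49), and 147 of the 12635 genes compared lay lower. PKP1 followed at -0.34, with 429 genes lower, and DSC2 at -0.24, with 841 genes lower. PKP3 was at -0.19, JUP at -0.18 and DSP at -0.15. PKP2, DSG2 and DSC3 were each between -0.09 and -0.08, where 20.2% to 21.1% of all genes lay lower. Counting error, taken from the reads that the FPKM imply on the longest transcript, was at least 0.086 on the log2 scale for DSG3, 0.083 for DSC3 and 0.012 for JUP. For DSC3, which was 1.08-fold lower in FPKM, this error was of the order of the difference, and for JUP it was a small part of it. This error does not cover the spread between cultures, which was not measured.

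In the same pair of 5637 libraries, all 4 basal cell markers were lower in the treated one, among them TP63 (-0.51) and KRT6A (-0.41). Of the keratin and vimentin list 9 of 9 genes were below 0, as were 7 of 8 compared urothelial markers and 9 of 10 compared transcription factors. These lists share genes, among them KRT5, KRT14 and KRT6A. Over all genes compared, 38.5% were below 0, and 53.7% with median-ratio scaling. All 4 plakin linkers were below 0 as well, whereas the adherens junction list was divided, with 4 of 8 compared genes below 0. CDH1 was at 0.05 and CTNNB1 at 0.15. Transcripts of the mitochondrial genome held 9.84% of the untreated and 11.9% of the treated FPKM sum, and the relative depth of these libraries was 1.43 and 1.18. The part of these features in the desmosome values was not tested.

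In T24 the desmosome genes lay on both sides of 0. Of the 6 that reached 1 FPKM, 4 were lower and 2 higher in the treated library, with a median of -0.08 against 0.02 over all 12193 genes compared, of which 44% were below 0. None reached 2-fold, against 0.484% of all genes. PKP3 had the largest difference, at 30.2 FPKM untreated and 22.3 FPKM treated (-0.42), and 387 genes (3.17%) lay lower. PKP2 followed at -0.16, DSC3 at -0.09 and DSG2 at -0.08. DSP was higher with treatment at 0.17 and JUP at 0.06. The sum of the 3 plakophilins in T24 was 34.2 FPKM untreated and 25.8 FPKM treated, and that of the desmosomal cadherins 24.6 and 23.2 FPKM. Mitochondrial transcripts held 4.5% and 3.74% of the sum in untreated and treated T24, and the treated library was 1.27 times as deep. Their part in these values was not tested.

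Among the partner lists in T24, all 6 compared genes of the keratin and vimentin list were below 0, with KRT19 at -0.65, from 85.7 to 54.2 FPKM. Over all genes compared in T24, 44% were below 0. In the other lists these were 5 of 7 transcription factors, 2 of 6 adherens junction genes and 1 of 4 plakin genes. They were also 1 of 5 proteases and kinases and 1 of 2 other desmosomal genes. EVPL (envoplakin) was at -0.32, NECTIN1, a nectin of the adherens junction, at 0.31, and ELF3, an epithelial transcription factor, at 0.37. ADAM17, a protease that sheds desmoglein, was at 0.27 in T24 and at 0.08 in 5637. NECTIN4 had the largest difference of the adherens junction list in 5637 (-0.33) but was under 1 FPKM in all 4 libraries.

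**Figure D4:**
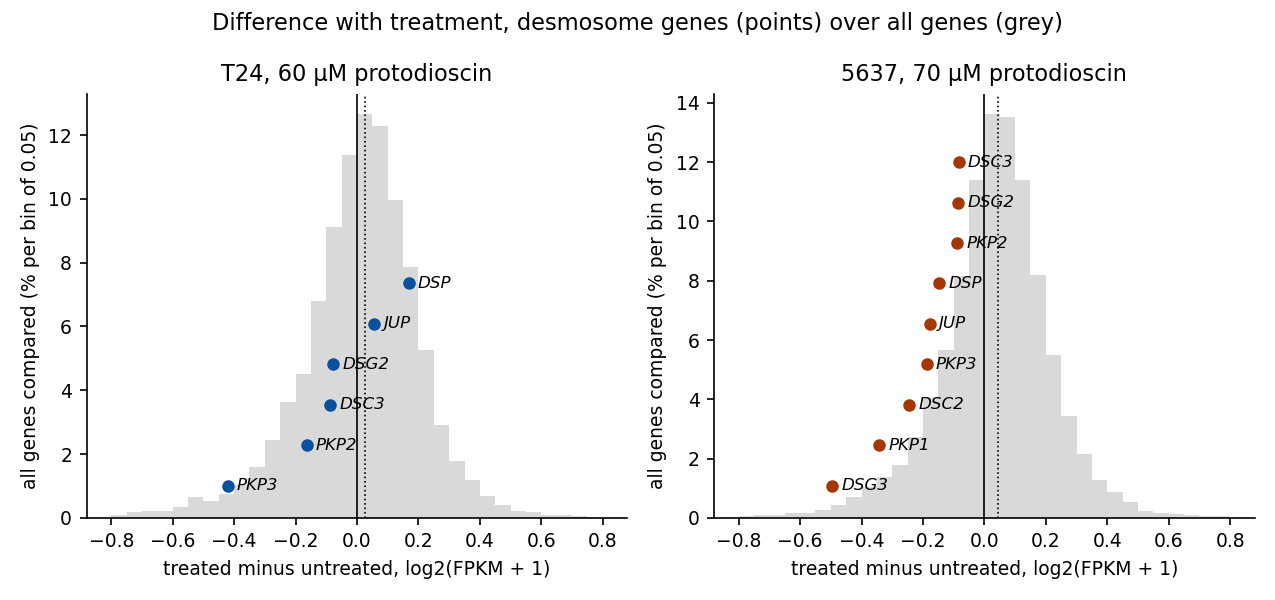
Treated minus untreated difference in log2(FPKM + 1) for the desmosome genes at 1 FPKM or more (points, set at arbitrary heights) over the distribution of all genes compared (grey), with 0 as a solid and the median of all genes as a dotted line. The 6 genes shown for T24 lie between -0.42 and 0.17, and the 9 genes for 5637 between -0.49 and -0.08.

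Over both lines, limma called 0 of the 9 desmosome genes for an effect of protodioscin, and 0% of all 12893 genes tested. At an unadjusted p below 0.05 there was 1 of the 9, PKP3, while 9.52% of all genes were. PKP3 was lower in the treated library of both lines, with a log2 difference of -0.3 (limma, 95% interval -0.49 to -0.12, adjusted p = 0.482, range over alternatives 0.368 to 0.999993). DSG3, DSC2 and PKP1 were near 0 in T24, so a lower level with treatment could show in 5637 alone. For DSG3 the interval was -0.61 to 0.12. For DSP, which was higher in T24 and lower in 5637, it was -0.22 to 0.24. In the partner lists limma called 0 genes for protodioscin. At an unadjusted p below 0.05 there were 6 of 9 in the keratin and vimentin list, all of them lower. KRT6A, among these 6, was near 0 in T24. There were 2 of 12 transcription factors, 1 of 4 plakin genes and 1 of 8 adherens junction genes. Neither the 2 other desmosomal genes nor the 5 proteases and kinases had any.

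The 5 genes outside the set whose 4 values were most like the median of the desmosome genes, by Euclidean distance of centred log2 values among 12884 genes, were OGG1, EPPK1, GSAP, CDK6 and GLI3, at distances of 0.116 to 0.143. EPPK1 encodes epiplakin, a keratin-binding protein of the plakin family, with 0.529 and 0.291 FPKM in T24, against 3.6 and 3.23 FPKM in 5637. OGG1, a DNA repair glycosylase, was at 10.9 and 9.77 FPKM in T24, against 34.1 and 31.7 FPKM in 5637. The likeness is over 4 libraries only and is dominated by the difference between the lines.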

How the data were processed

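The authors deposited gene-level FPKM for the 4 libraries. The submitters' processing notes list Trimmomatic, HISAT2, StringTie and GRCh38. Their versions and settings and the gene annotation were not given in the sources used here. Total RNA was made into TruSeq v2 libraries and sequenced as paired reads of 150 bases, per the labels' protocols. Of 60617 identifiers, 58542 were in GENCODE 29, which gave coordinates, lengths and exon overlap on GRCh38. None of the 9 genes shares an exon with another gene on its strand. Values were analysed as log2(FPKM + 1). Within a pair of libraries, genes that reached 1 FPKM in either library were compared, with a difference of 1 as the size rule and no test. limma 3.58.1 in R 4.3.3 fitted line and treatment over the 4 libraries with a trended prior variance. The fit used genes that reached 1 FPKM in 2 or more libraries, with calls at an adjusted p below 0.05, and was run on simulated data. That simulation took its noise from the fit's own prior variance and held no difference of response between the lines. It therefore does not show how the fit performs on these libraries. A few very abundant transcripts can lower the FPKM of all other genes in a library. Reads were estimated from the spacing of the lowest FPKM on genes with 1 transcript, and intervals from them cover counting error only. Whole reads were not recovered, so no count test was run. The text names all 9 genes and, from each partner list, those with the highest and lowest line difference. It also names those with the largest difference with treatment in each line, and PERP, CTNNB1, CDH1, TP63 and VIM. SNAI2 was added because the E-box description names it. The genes and lists were chosen with earlier results of these data known. Alternatives changed the pseudocount, the filter, the scaling, the genes with shared exons and the terms of the fit. The analysis used Python 3.11.15 and pandas 2.3.3.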

Additional observations from a re-analysis of the deposited data

Results flagged for a closer look

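Some genes at 1 FPKM or more in all 4 libraries were higher with protodioscin in 1 line and lower in the other. With 1 library a group this difference of the responses was not tested, and the doses differed. Among the desmosome genes, the response in T24 minus that in 5637 was 0.32 for DSP and 0.24 for JUP on the log2 scale. In the partner lists it was 0.16 for PERP, 0.35 for DST, 0.33 for PPL, 0.64 for NECTIN1 and 0.61 for ELF3, all higher in treated T24 and lower in treated 5637. For CTNNB1 it was -0.23, with the opposite directions. Some of these directions rest on a difference near 0, such as 0.03 for DST and 0.06 for JUP in T24 and -0.05 for PERP in 5637.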

How the results depend on the processing

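No paired analysis was possible because the labels give no replicate numbers that groups share. The limma fit already sets treated against untreated cells within each line through its line term. No library could be left out with 1 in each group. The lower level of all 9 desmosome genes in T24 and their lower level in treated 5637 held in direction under each scaling run. A pseudocount or a filter cannot change the direction of a difference. Those runs bear only on its size and on which genes are kept. At a filter of 5 FPKM the genes left, all below 0, were 7 in the untreated and 6 in the treated pair of lines and 7 for treatment in 5637. limma called every desmosome gene tested for the line effect under each alternative (adjusted p from 1.18e-07 to 0.0312) and none for treatment. In the main fit 68.9% of all genes tested were called for the line effect. The filter of that fit fixed the direction for DSC2, DSG3 and PKP1. Over all genes, limma called at most 2 for treatment under any alternative. The median over the desmosome genes in T24 with treatment was -0.0499 with a pseudocount of 5, -0.0492 without a filter and -0.00999 with a filter of 5 FPKM, where 2 genes were below 0. With a pseudocount of 5, the median difference between the treated lines was -1.01 and 5 genes were 2-fold lower in T24. The depth limits DSG3 and PKP1 in T24, which rest on at most about 15.5 reads. The labels give doses in 2 units, and the spread between cultures was not measured.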
